A study of Mus musculus with 2 samples.

Results

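The SLC25 mitochondrial carriers were taken as every gene whose symbol begins with Slc25a in both expression tables, 47 of 24346 genes, ranked by mean level and grouped by the substrate each protein is known to carry. RNA had been sequenced from Gr-1+ CD11b+ cells, a myeloid population rich in neutrophils and monocytes, of BALB/c mice given dextran sulfate sodium (DSS), a polymer that injures the colon, at 3% for 6 days. The control group was 1 library of cells stimulated without ATPγS. The other group was 1 library of cells stimulated with ATPγS, a slowly hydrolysed analogue of ATP. Strain, DSS exposure and the incubation of 2.5 hours were the same in both groups. The number of mice, the organ of origin and any pooling were not given in the sources used here. The series title concerns metabolism of myeloid cells that depends on the ATP-gated channel P2X4, and the comparison asks which carrier transcripts differed with ATPγS. With 1 library per condition there is no replicate error, so every difference below compares 2 libraries and carries no p-value.

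SLC25 proteins sit mostly in the inner mitochondrial membrane, which is otherwise closed to charged metabolites, and most exchange a substrate of the matrix for a substrate of the cytosol. They are made in the cytosol without a cleaved targeting signal in most cases, pass the outer membrane, and are inserted by a dedicated translocase. Through them ATP leaves and ADP and phosphate enter, acids of the citrate cycle and amino acids cross, and iron and cofactors reach the matrix. Neutrophils are known for a sparse mitochondrial network and for relying largely on glycolysis, while monocytes and macrophages respire more.

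Levels are FPKM, fragments scaled to transcript length and to mapped depth, so they can be compared between genes. The recovered depth, read from the smallest steps between values, was about 2137000 fragments for the control and 2848000 for ATPγS. Olfactory and vomeronasal receptor genes, which leukocytes are not known to use broadly, gave a measure of background. Their 1440 members had a median of 1.97 FPKM in the control and 2.21 FPKM with ATPγS, and the 95th percentile of their mean level was 15.3 FPKM. Of 4 gate markers sought, 3 were present, Itgam (112 and 144 FPKM in control and ATPγS), Ly6c1 (133 and 166 FPKM) and Ly6c2 (70.9 and 63.7 FPKM). Ly6g, of the main Gr-1 antigen, was not found among the listed gene symbols. Of 6 neutrophil markers, 6 were present. The summed level of 6 T and NK cell markers was 246 FPKM in the control and 78.9 FPKM with ATPγS, with 6 of 6 lower and none at 0. Macrophage markers summed to 224 and 356 FPKM, with 5 of 5 higher in the ATPγS library and none at 0. B cell markers (4 genes, 3 lower) summed to 319 and 247 FPKM, and epithelial markers (5 genes, 3 lower, Vil1 listed at 0 in the control) to 139 and 105 FPKM. The part of these marker differences in the carrier differences was not tested. In bulk RNA fewer cells of a type cannot be told apart from less RNA per cell.

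The family was led by the carriers of oxidative phosphorylation. Slc25a5, of the ADP/ATP carrier ANT2, was the most abundant member in both libraries, followed by Slc25a3, of the phosphate carrier that supplies ATP synthase. Slc25a5 alone held 37.9% of the summed SLC25 FPKM in the control and 40.6% with ATPγS, and the 5 members of highest mean level held 72.3% and 70.6%. Only 2 members had a mean of at least 100 FPKM, 6 reached 20 FPKM and 24 reached 5 FPKM. Of 47 members, 36 had a mean at or below the 95th percentile of the receptor genes, and 11 lay above it. The sum over the family was 899 FPKM in the control and 916 FPKM with ATPγS.

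**Figure D1:**
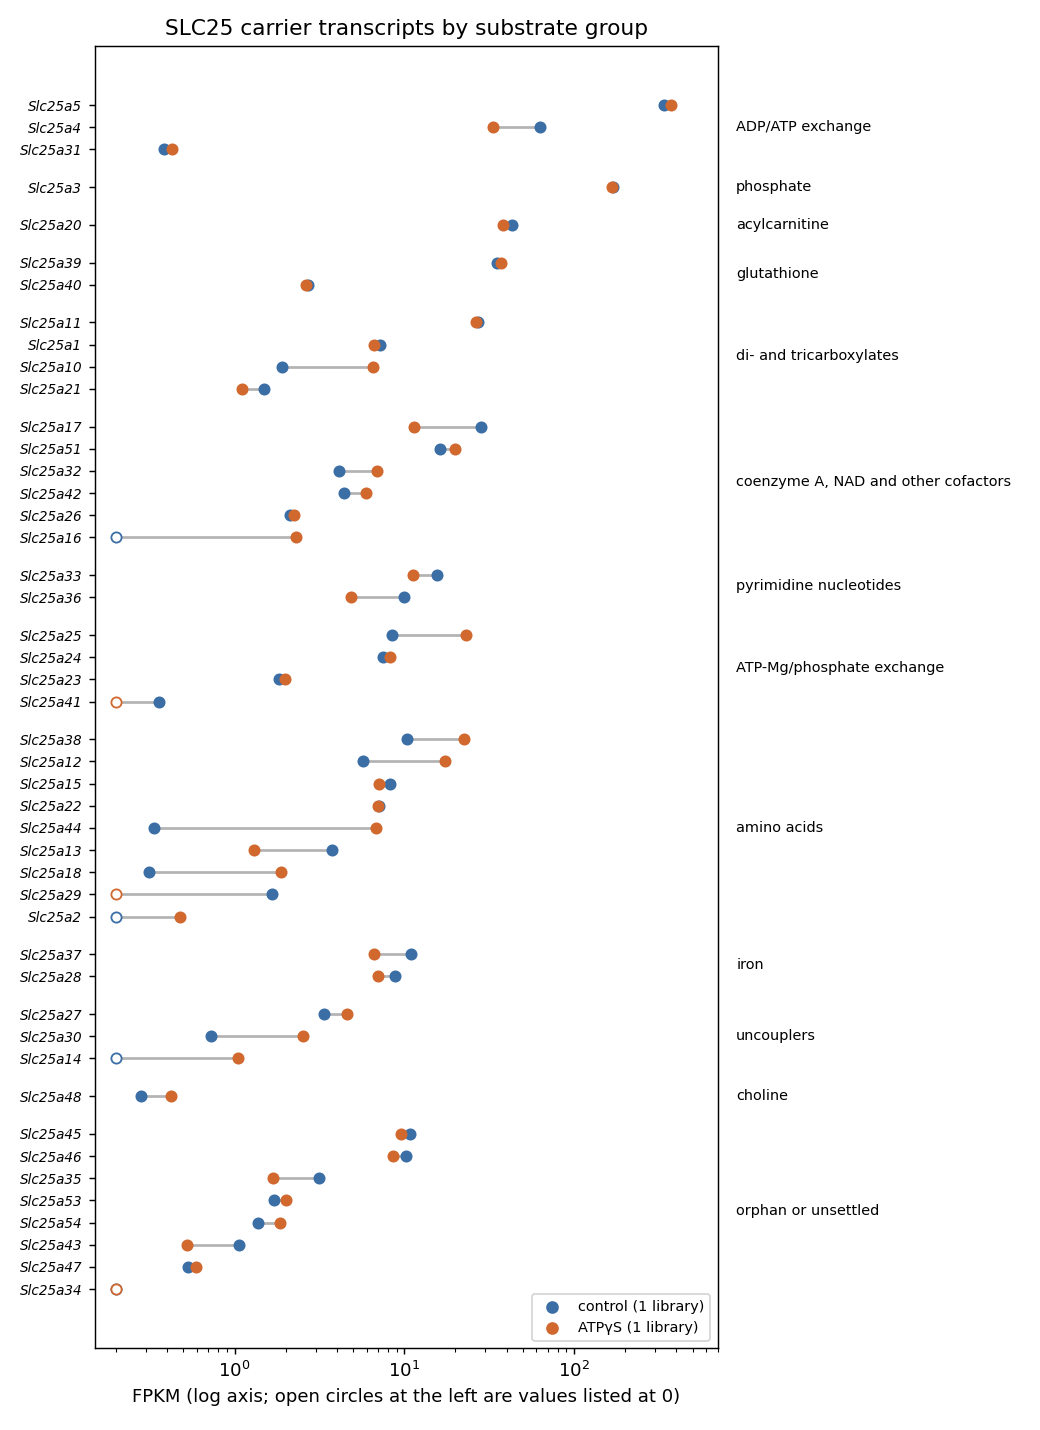
FPKM of 46 of the 47 SLC25 carrier genes (log axis) in the control library (blue) and the ATPγS library (orange), grouped by substrate, each point being 1 library and open circles marking values listed at 0. Slc25a5 and Slc25a3 stand far to the right of the rest, and the widest gaps between libraries are among members under about 20 FPKM.

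A total of 38 members had a mean of at least 1 FPKM over both libraries and entered the counts. The log2 ratio of (ATPγS FPKM + 1) to (control FPKM + 1) was used for these counts, a scale that understates the difference of low genes. By 2-fold or more, 8 members were higher with ATPγS (13.8% of all 18311 genes at that level were) and 2 members were lower (9.91% of all genes). The other 28 lay between. The median log2 ratio of the 38 was 0.02, where all genes had 0.01, and 19 of 38 lay below 0, where 49.6% of all genes did. The 8 higher members were Slc25a44, Slc25a16, Slc25a12, Slc25a10, Slc25a25, Slc25a18, Slc25a38 and Slc25a30, and the 2 lower members were Slc25a17 and Slc25a13. Of the higher members, Slc25a44, Slc25a16, Slc25a18 and Slc25a30 were below 1 FPKM in the control. They entered the counts through the ATPγS library alone, so their place among the higher members follows in part from the filter.

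Most of these differences were at low levels. Among the 24 members with a mean of at least 5 FPKM, 3 were higher by 2-fold or more (7.48% of all genes at that level) and 1 was lower by as much (9.04%). These were Slc25a12, Slc25a25 and Slc25a38 on the higher side and Slc25a17 on the lower side. None of the 6 members at 20 FPKM or more passed 2-fold, where 7.30% of all 3480 genes at that level did. Of the 14 members with a mean of 1 to 5 FPKM, 5 were higher and 1 was lower, where 32.1% of all 8419 genes and 49.6% of 623 receptor genes at that level passed 2-fold in either direction.

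**Figure D2:**
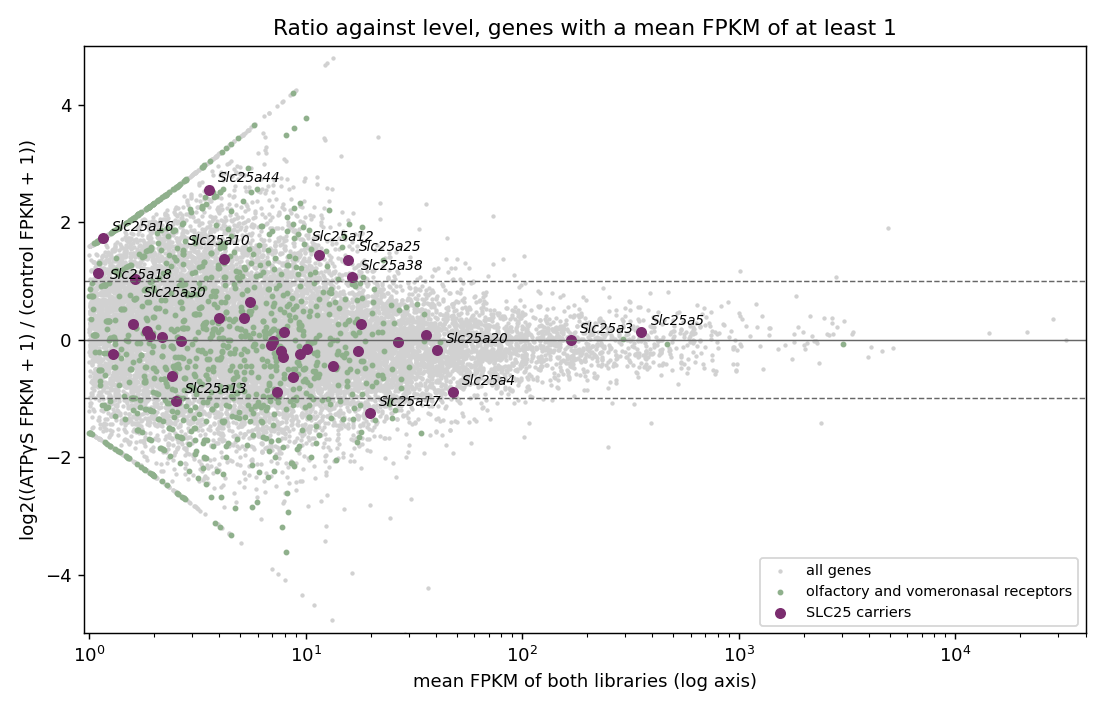
Log2 ratio of ATPγS to control (1 FPKM added to each) against the mean FPKM of both libraries (log axis) for all genes with a mean of at least 1 FPKM (grey), olfactory and vomeronasal receptors (green) and SLC25 carriers (purple), with dashed lines at 2-fold. The 10 carriers past 2-fold all have a mean under 20 FPKM, where receptor genes spread widely too, and 43 genes lie outside the plotted range.

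Ratios of single genes are given without the added 1 FPKM, with a 95% exact binomial (Clopper-Pearson) interval from estimated reads that covers counting error only. They hold no spread between libraries and may be too narrow. Of 888 receptor genes with both values above 0 and a mean of at least 1 FPKM, 38.1% had an interval without 1. Of the 37 carriers of the same kind, 14 had such an interval, which is 37.8%. Depth was fitted on the coding length of receptor genes, while their intervals used the longest transcript. Receptor reads can therefore be too many and their intervals too narrow, so the 38.1% does not measure spread beyond counting error. The shares cannot be compared directly, and an interval without 1 is not read as a difference here.

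ADP/ATP exchange is carried out by a small set of paralogs, ANT1 of heart and muscle, the more widely used ANT2, and a germ line form. Slc25a5 (ANT2, chromosome X, 36795651 to 36798807, GRCm38) stood at 340 FPKM in the control and 372 FPKM with ATPγS, a ratio of 1.09 (interval 1.002 to 1.19). Slc25a4 (ANT1, chromosome 8, 46206797 to 46211284) stood at 62.9 FPKM in the control and 33.4 FPKM with ATPγS, a ratio of 0.531 (0.436 to 0.643). Slc25a4 was thus lower by 1.88-fold (1.55 to 2.29), from about 259 and 183 reads, and its log2 ratio of -0.89 fell short of the 2-fold limit. The germ line gene Slc25a31 stood at 0.382 and 0.428 FPKM. ANT1 made up 15.6% of the summed Slc25a4 and Slc25a5 FPKM in the control and 8.25% with ATPγS, while that sum hardly moved, at 403 and 405 FPKM.

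The level of Slc25a5 is uncertain, since 46.6% of the 50-base windows of its transcript also occur in transcripts of 9 other genes, among them the pseudogenes Gm5560 and Slc25a5-ps. How the authors' counting shared such reads is not given in the sources used here. None of the windows of Slc25a4 occur elsewhere. Among the 47 members, Slc25a5 was the 1 with more than 20% of its windows in other genes, and 29 members had none.

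The 250 bases before the RefSeq start of Slc25a5 are shown because it is the most abundant member, from RefSeq on GRCm38.p6 at chrX:36795347-36795596, plus strand, with capitals marking a GC box (GGGCGG on either strand), a motif bound by Sp factors that begins 14 bases before the start.
Slc25a5: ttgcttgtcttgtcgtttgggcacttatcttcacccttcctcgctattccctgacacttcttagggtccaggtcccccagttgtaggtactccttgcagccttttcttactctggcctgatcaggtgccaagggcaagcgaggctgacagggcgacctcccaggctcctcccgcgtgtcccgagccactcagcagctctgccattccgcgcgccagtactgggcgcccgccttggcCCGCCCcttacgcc

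The phosphate carrier gene Slc25a3 (chromosome 10, 91116574 to 91124059) differed least among the abundant members, at 168 FPKM in the control and 167 FPKM with ATPγS (ratio 0.990, 0.887 to 1.10). Its product brings phosphate into the matrix for ATP synthesis, and its muscle and general splice forms share 1 value in these tables. Slc25a20, of the carnitine/acylcarnitine carrier that admits fatty acids for oxidation, stood at 43.1 and 38.0 FPKM (ratio 0.881, 0.713 to 1.09). Slc25a39, of a carrier for glutathione import, stood at 35.1 and 36.9 FPKM (1.05, 0.834 to 1.34). Its paralog Slc25a40 was low, at 2.69 and 2.65 FPKM, and 10.3% of its windows occur in Gm5066. The counting intervals of Slc25a3, Slc25a20 and Slc25a39 all included 1.

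Carriers of di- and tricarboxylates move intermediates of the citrate cycle. Slc25a11, of the oxoglutarate/malate carrier of the malate-aspartate shuttle, stood at 27.2 FPKM in the control and 26.5 FPKM with ATPγS (ratio 0.972, 0.740 to 1.27). Slc25a1, of the carrier that exports citrate for lipid synthesis and protein acetylation, stood at 7.17 and 6.66 FPKM (0.929, 0.533 to 1.61). These 2 genes hardly differed between the libraries. Slc25a10, of the dicarboxylate carrier that exchanges malate or succinate for phosphate, stood at 1.91 and 6.51 FPKM (3.41, 1.59 to 8.63), from about 8 and 37 reads. It was the 1 of 4 members of this group past 2-fold (13.8% of all genes were higher and 9.91% lower). Its mean lay below the 95th percentile of the receptor genes, and 9.07% of its windows occur in Gm11788. Slc25a21, of the oxodicarboxylate carrier, stood at 1.48 and 1.11 FPKM.

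The aspartate/glutamate carriers complete the malate-aspartate shuttle, which brings reducing equivalents of cytosolic NADH into mitochondria. Slc25a12 (AGC1, chromosome 2, 71271063 to 71367749) stood at 5.74 FPKM in the control and 17.3 FPKM with ATPγS, a ratio of 3.01 (2.34 to 3.91) from about 78 and 313 reads. It was the highest ratio among members with a mean of at least 5 FPKM. Its paralog Slc25a13 (AGC2 or citrin, chromosome 6, 6041218 to 6217173) went the other way, at 3.73 and 1.30 FPKM, lower by 2.86-fold (1.34 to 6.07) from about 25 and 12 reads. AGC1 made up 60.6% of the pair's summed FPKM in the control and 93.0% with ATPγS, and the sum stood at 9.47 and 18.6 FPKM. The means of Slc25a12 (11.5 FPKM) and Slc25a13 (2.52 FPKM) both lay below 15.3 FPKM, the upper level of the receptor genes given above. The shift in the pair thus rests on genes whose mean level is within the receptor range. With ATPγS, however, Slc25a12 at 17.3 FPKM exceeded the 95th percentile of the receptor genes in that library, 15.6 FPKM. Slc25a13 no longer passed 2-fold once the libraries were rescaled to a median log2 ratio of 0 over genes at 10 FPKM or more.

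**Figure D3:**
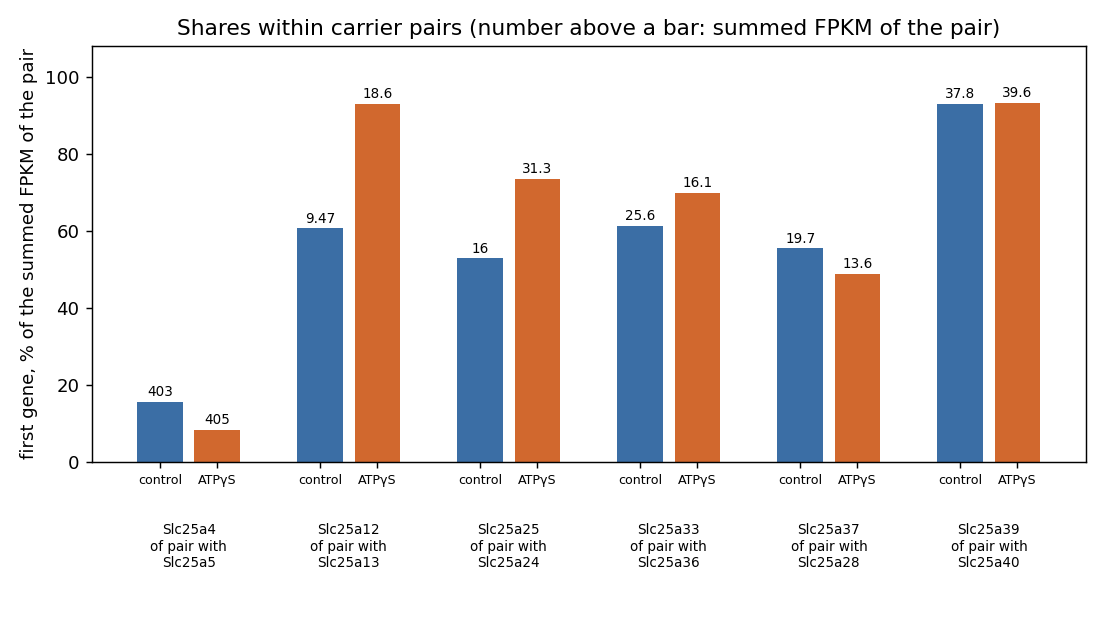
Share of the first gene in the summed FPKM of 6 pairs of related carriers, in the control library (blue) and the ATPγS library (orange), with the pair's summed FPKM above each bar. The share of Slc25a4 is smaller and that of Slc25a12 and Slc25a25 larger with ATPγS, while Slc25a39 held 92.9% and 93.3% of its pair.

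Other amino acid carriers gave 3 further higher members. Slc25a38 (chromosome 9, 120110374 to 120124504), of a glycine carrier that supplies the first step of heme synthesis, stood at 10.3 FPKM in the control and 22.6 FPKM with ATPγS (ratio 2.19, 1.49 to 3.17), from about 40 and 115 reads. Slc25a44 (chromosome 3, 88410498 to 88425139), of a carrier of branched-chain amino acids, stood at 0.335 and 6.84 FPKM (20.4, 5.75 to 86.9), from about 3 and 70 reads. Slc25a18, a glutamate carrier gene, stood at 0.314 and 1.88 FPKM (5.98, 1.07 to 326), from about 1 and 10 reads. The low values in the control leave the size of the last 2 ratios poorly known.

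The other amino acid carriers differed less or were barely detected. Slc25a22, of the main glutamate carrier here, stood at 7.14 and 6.96 FPKM (0.976, 0.645 to 1.49), and Slc25a15, of the ornithine carrier of the urea cycle, at 8.26 and 7.10 FPKM (0.860, 0.593 to 1.22). Slc25a29, of a carrier of basic amino acids, was at 1.65 FPKM in the control and listed at 0 with ATPγS. Slc25a2, of another ornithine carrier, had 0.479 FPKM with ATPγS and was listed at 0 without it. Of 9 genes of this group, 7 entered the counts, with 4 higher (13.8% of all genes) and 1 lower (9.91%), and the summed level was 37.5 and 64.4 FPKM. Of the 4, Slc25a44 and Slc25a18 were below 1 FPKM in the control and entered the counts through the ATPγS library alone.

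The ATP-Mg/phosphate carriers change the adenine nucleotide content of the matrix and bind calcium on the outer face of the membrane. Slc25a25 (SCaMC-2, chromosome 2, 32414487 to 32451445) stood at 8.43 FPKM in the control and 23.0 FPKM with ATPγS, a ratio of 2.73 (2.05 to 3.63) from about 64 and 231 reads. Slc25a24 (SCaMC-1) stood at 7.53 and 8.29 FPKM (1.10, 0.775 to 1.59) and Slc25a23 (SCaMC-3) at 1.84 and 1.98 FPKM (1.08, 0.514 to 2.42). Slc25a41, a related form without the calcium-binding domain, was at 0.358 FPKM in the control and listed at 0 with ATPγS. Slc25a25 thus went from 52.8% to 73.5% of its summed level with Slc25a24. Together with Slc25a12 and Slc25a13 the calcium-binding carriers number 5, of which 2 were higher (13.8% of all genes) and 1 lower (9.91%), a grouping made after the values were seen.

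Slc25a25 has several RefSeq starts, and the 250 bases before the innermost of them hold a cAMP response element (CRE, TGACGTCA), the motif of the calcium- and cAMP-responsive factor CREB. It begins 150 bases before the start. Slc25a36, described below, is the other member with this element, which begins 161 bases before its start, and its window is shown up to the first base of a GENCODE exon. The letters are from RefSeq on GRCm38.p6, at chr2:32424067-32424316 and chr9:97111158-97111291, both minus strand. Capitals mark the CRE and a CCAAT box (CCAAT on either strand) in both, and a GC box in Slc25a25. The GC box of Slc25a36 lies in the part not shown.
Slc25a25: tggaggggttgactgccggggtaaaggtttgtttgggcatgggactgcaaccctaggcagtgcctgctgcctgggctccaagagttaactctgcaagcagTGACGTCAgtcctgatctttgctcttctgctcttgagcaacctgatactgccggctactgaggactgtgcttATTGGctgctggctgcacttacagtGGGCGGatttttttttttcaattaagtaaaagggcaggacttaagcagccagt
Slc25a36: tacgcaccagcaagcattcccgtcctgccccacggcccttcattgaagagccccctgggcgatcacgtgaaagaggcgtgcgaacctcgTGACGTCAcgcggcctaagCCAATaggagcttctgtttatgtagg

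The 2 members with this element had ratios on opposite sides of 1, Slc25a25 being higher and Slc25a36 lower in the ATPγS library. Promoter windows of 250 bases were at hand for 36 members, some with several starts, 46 windows in all. The CRE was in 2 of them (4.35%), where 1.55% of all 32851 windows hold it. A GC box was in 32 (69.6%, against 32.7% of all windows), a CCAAT box in 21 (45.7%, against 33.8%) and a TATA box (TATAAA) in 2 (4.35%, against 12.4%). An ETS core (CCGGAAG) was in 6 (13.04%, against 6.91%), the core of the NRF1 motif (GCATGCGC) in 2 (4.35%, against 2.26%) and the AP-1 motif (TGACTCA) in 1 (2.17%, against 4.46%). All motifs were searched on both strands. A match is a stretch of letters and says nothing of binding in these cells.

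**Figure D4:**
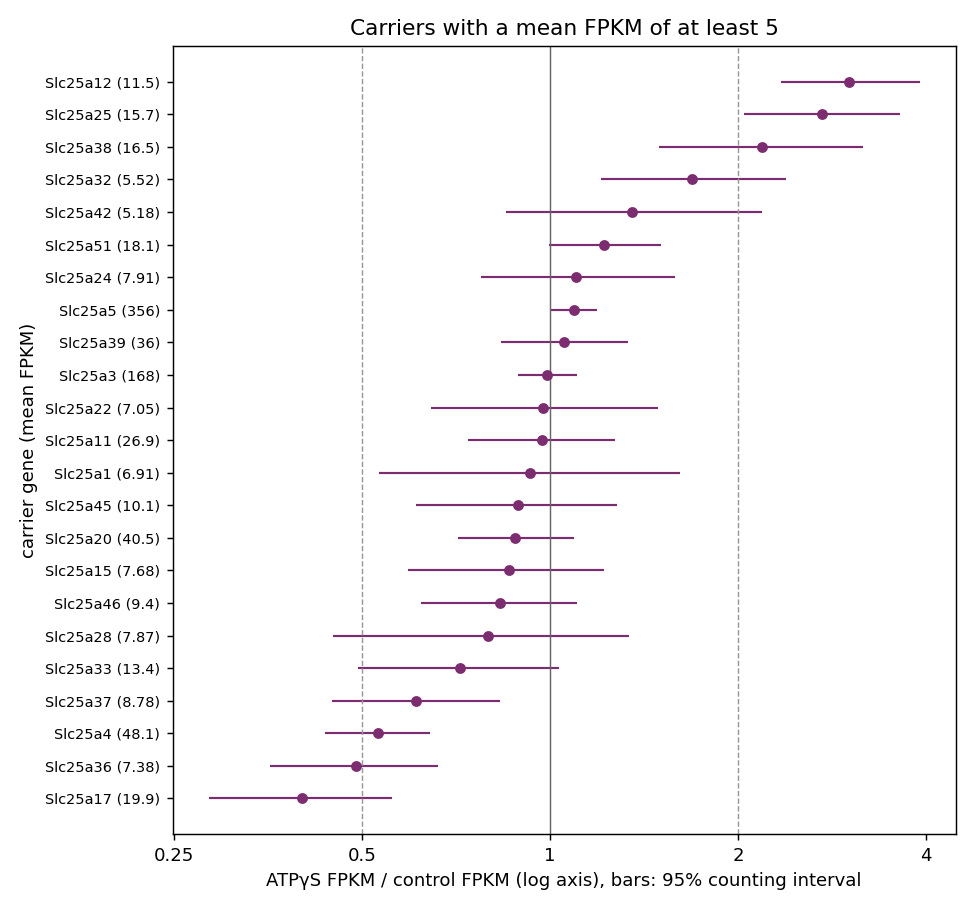
Ratio of ATPγS to control FPKM (log axis) with its 95% counting interval for 23 of the 24 carriers with a mean of at least 5 FPKM, ordered by ratio, 1 library per group, with dashed lines at 2-fold in either direction. Slc25a12, Slc25a25 and Slc25a38 lie above 2, and Slc25a17 and Slc25a36 lie below 0.5.

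Pyrimidine nucleotide carriers supply precursors for mitochondrial DNA and RNA. Slc25a33 stood at 15.7 FPKM in the control and 11.2 FPKM with ATPγS (ratio 0.717, 0.493 to 1.03). Slc25a36 stood at 9.91 and 4.85 FPKM (0.489, 0.357 to 0.661), from about 111 and 72 reads. Both were lower in the ATPγS library, Slc25a36 by 2.04-fold without the added 1 FPKM, although its log2 ratio of -0.90 on the counted scale did not pass 2-fold. In each, about 12% of the windows occur in another gene (12.6% in Gm13068 for Slc25a33 and 11.8% in Gm13217 for Slc25a36).

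Among the 7 carriers of coenzyme A, NAD and other cofactors, 1 was lower (9.91% of all genes) and 1 higher (13.8%) by at least 2-fold. Slc25a17 (chromosome 15, 81318911 to 81360812), of a peroxisomal carrier of coenzyme A, FAD and NAD, stood at 28.4 FPKM in the control and 11.4 FPKM with ATPγS. It was lower by 2.50-fold (1.79 to 3.52), from about 105 and 56 reads, and went from sixth to twelfth in rank. It was the most abundant member to pass 2-fold. Slc25a16, of a carrier linked to coenzyme A, had 2.31 FPKM with ATPγS and was listed at 0 without it, so no ratio is given.

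Other cofactor carriers differed by less than 2-fold. Slc25a51, of the NAD carrier, stood at 16.3 and 19.9 FPKM (1.22, 0.997 to 1.505). Slc25a32, linked to folate and FAD, stood at 4.11 and 6.94 FPKM (1.69, 1.21 to 2.39), and Slc25a42, of another coenzyme A carrier, at 4.40 and 5.95 FPKM (1.35, 0.849 to 2.19). Slc25a26, of the S-adenosylmethionine carrier that serves methylation in the matrix, stood at 2.12 and 2.22 FPKM (1.05, 0.387 to 2.69).

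The mitoferrins bring iron to the matrix for heme and iron-sulfur clusters, mitoferrin 1 mainly in developing red cells and mitoferrin 2 in most tissues. Slc25a37 (mitoferrin 1, chromosome 14, 69241848 to 69285112) stood at 10.9 FPKM in the control and 6.65 FPKM with ATPγS (ratio 0.610, 0.448 to 0.831). Slc25a28 (mitoferrin 2) stood at 8.76 and 6.97 FPKM (0.795, 0.450 to 1.34). Both were lower in the ATPγS library, neither by 2-fold, while the glycine carrier gene Slc25a38 of the same route to heme was higher. The summed level of the 7 erythroid markers measured was 733 FPKM in the control and 634 FPKM with ATPγS, 5 of 7 being lower. Nearly all of it was the globin gene Hba-a1 (725 and 616 FPKM), with Hbb-bs at 0.056 and 0.028 FPKM, Alas2 at 7.36 and 17.9 FPKM, Klf1 listed at 0 with ATPγS and Epor at 0 in both, and its part in these 3 carriers was not tested.

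Among the uncoupler-like carriers, Slc25a30 (KMCP1) stood at 0.727 and 2.54 FPKM (3.50, 1.31 to 9.66), Slc25a27 (UCP4) at 3.36 and 4.60 FPKM (1.37, 0.777 to 2.44), and Slc25a14 (UCP5) had 1.05 FPKM with ATPγS and was listed at 0 without it. The means of all 3 lay below the 95th percentile of the receptor genes. The uncoupling protein known from myeloid cells is UCP2, whose gene belongs to the family under another symbol. Ucp2 stood at 268 and 240 FPKM (0.896, 0.848 to 0.948), between Slc25a5 and Slc25a3 in level. Ucp1, of brown fat, stood at 1.26 and 1.14 FPKM, and Ucp3, of muscle, was listed at 0 and 1.21 FPKM. The outer membrane relatives Mtch1 (29.9 and 34.0 FPKM) and Mtch2 (39.2 and 34.7 FPKM), the latter an insertase of that membrane, differed little.

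Of the 8 orphan members or members of unsettled substrate, 5 entered the counts and none passed 2-fold (13.8% of all genes were higher and 9.91% lower). Slc25a45 stood at 10.7 and 9.53 FPKM (0.889, 0.610 to 1.28) and Slc25a46, of an outer membrane protein tied to mitochondrial shape, at 10.3 and 8.53 FPKM (0.831, 0.623 to 1.10). Slc25a35 stood at 3.14 and 1.68 FPKM. Over all its annotated exons, 31.3% of the bases overlap Rangrf on the opposite strand, which these libraries cannot separate. None of the windows of its longest RefSeq-linked transcript occur in other genes. The choline carrier gene Slc25a48 (0.282 and 0.422 FPKM) was at the level of a few reads, as were Slc25a43 and Slc25a47 of the orphan group, and Slc25a34 was listed at 0 in both. In all, 9 members had a mean below 1 FPKM, and for genes of their length 3 counts correspond to 0.416 to 1.26 FPKM in the control.

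The members share their size and not their neighbourhood. Their coding length had a median of 318 codons, and 40 of 47 had 260 to 400 codons, while the longest were Slc25a12 (677) and Slc25a13 (676), which carry a calcium-binding extension. The 47 genes lie on 19 chromosomes with 4 on X. Only 4 adjacent pairs were within 50000 bases of each other, Slc25a29 with Slc25a47, Slc25a41 with Slc25a23, Slc25a54 with Slc25a24 and Slc25a43 with Slc25a5. Neighbours could differ widely in level. Slc25a43 and Slc25a5 are 18448 bases apart, with means of 0.790 and 356 FPKM.

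Other transport genes of the same membranes were set beside the family, 46 genes in 5 lists, of which 43 entered the counts. Of these, 4 were higher (13.8% of all genes) and 4 lower (9.91%) by 2-fold or more with ATPγS, with a median log2 ratio of 0.18. Among other inner membrane carriers, Mpc1, a subunit of the pyruvate carrier, stood at 96.1 and 41.4 FPKM, lower by 2-fold or more, and its partner Mpc2 at 48.6 and 24.98 FPKM. Abcb10, of a transporter that binds mitoferrin 1, was lower as well, at 3.36 and 0.728 FPKM (ratio 0.217, 0.0912 to 0.469), from about 31 and 9 reads. Abcb10 was below 1 FPKM with ATPγS and entered the counts through the control library alone. The mean of Abcb10, 2.04 FPKM, also lay below the median of the receptor genes' mean levels, 2.27 FPKM. Sfxn5, a sideroflexin gene, was higher at 1.68 and 10.9 FPKM, and Smdt1, of the calcium uniporter complex, stood at 85.9 and 105 FPKM.

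The outer membrane channels and the import route gave further values. Vdac1, of the channel through which metabolites pass before they reach the carriers, was higher at 10.3 and 31.4 FPKM (ratio 3.06, 2.21 to 4.39), while Vdac3 (72.9 and 93.9 FPKM) and Vdac2 (38.5 and 50.3 FPKM) differed less. Tomm70a, of the outer membrane receptor that recognises newly made carriers, was lower at 27.3 and 10.5 FPKM (0.384, 0.319 to 0.461). It was the 1 of 11 import genes to pass 2-fold on the scale with 1 FPKM added (13.8% of all genes were higher and 9.91% lower). The most abundant import genes were Tomm22 (33.1 and 40.1 FPKM) and Timm8b (33.6 and 38.1 FPKM), and Timm22, of the translocase that inserts carriers, stood at 5.69 and 12.0 FPKM, a ratio of 2.11 (1.42 to 3.23) that did not pass on that scale (log2 ratio 0.96). Among 9 mitochondrial iron users, Fech, of ferrochelatase, was higher at 4.44 and 14.6 FPKM (3.29, 2.50 to 4.43). Ftmt, of mitochondrial ferritin, was higher at 0.580 and 3.91 FPKM (6.74, 1.41 to 53.8), from about 2 and 16 reads. Ftmt was below 1 FPKM in the control and entered the counts through the ATPγS library alone. Alas1, of the first enzyme of heme synthesis outside red cells, stood at 233 and 207 FPKM and the iron-sulfur scaffold gene Iscu at 55.9 and 48.7 FPKM.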

How the data were processed

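The authors deposited 1 table per library with 1 FPKM value per gene symbol. Cufflinks 2.2.1, TopHat2 2.0.13, SAMtools 0.1.19 and Bowtie2 2.2.3 are named, with the build mm10, per the submitters' processing notes. Per the labels' protocols cDNA came from the SMART-Seq HT kit and libraries from a Nextera kit, which does not mark strand. The annotation was not given in the sources used here. FPKM are not counts, so no count test was run, and a value of exactly 0 can be a failed estimate. Depth was found by testing totals from 1000000 to 4000000. The total kept was the one at which receptor genes with 1 coding exon gave the most whole reads over their coding length. Of values under 10 reads, 70.7% in the control and 70.9% with ATPγS came within 0.05 of a whole read (10.0% by chance). Reads per gene used the longest RefSeq-linked transcript of GENCODE M21 (GRCm38, the build of mm10), so they are approximate. All 47 members were found there. PCR copies cannot be told from separate molecules. Members with a mean of at least 5 FPKM, or past 2-fold at a mean of at least 1 FPKM, were named with values, as were their paralogs, members listed at 0 and, of the companion lists, genes past 2-fold and the 2 most abundant. Slc25a21, Slc25a26, Slc25a27, Slc25a35, Slc25a43, Slc25a47, Slc25a48, Slc25a54, Mpc2, Timm22, Mtch1, Ucp1 and Ucp3 fall outside that rule and were chosen after their values were seen. Some genes that enter the counts and sums, 1 of them a carrier, are not reported here by name. Steps were tested on simulated reads with counting error only, with 3-fold differences set in genes at a mean of at least 20 FPKM. That setting holds no spread beyond counting error, and the carriers past 2-fold all lie below that level. Members and lists were chosen with earlier results of these data known. Python 3.11.15 and scipy 1.17.1 were used. Alternatives were other pseudocounts, rescaling, filters, folds and scales of abundance.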

Additional observations from a re-analysis of the deposited data

How the results depend on the processing

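With 1 library per group no spread between samples can be had, and carriers with a mean below 1 FPKM rest on a few reads. No paired analysis was possible because each group has 1 library. The count of 8 higher carriers was 3 with a pseudocount of 5 (3.06% of all genes tested), 3 at a mean of at least 5 FPKM (7.48%), 0 at a mean of at least 20 FPKM (2.30%) and 2 at 3-fold (6.30%). The count of 2 lower carriers was 1 with a pseudocount of 5 (2.52% of all genes tested), 1 (Slc25a17) after rescaling so that the median of genes at 10 FPKM or more was 0 (8.11%), 1 at a mean of at least 5 FPKM (9.04%), 0 at 20 FPKM (5%), 6 at 1.5-fold (20.7%) and 0 at 3-fold (3.34%). Carriers with a log2 ratio below 0, 19 of 38, numbered 4 of 6 at 20 FPKM (60.7% of all genes), 14 after that rescaling (42.8%) and 15 with libraries set to the same sum (46.6%). These scalings moved log2 ratios by 0.13 and 0.05, so a log2 ratio closer to 0 than 0.13 has no direction. The count of 8 companion genes, of 43 tested, was 5 of 36 at 5 FPKM (7.48% of all genes higher and 9.04% lower). It was 2 of 20 at 20 FPKM (2.30% and 5%), 16 of 43 at 1.5-fold (24.1% and 20.7%) and 2 of 43 at 3-fold (6.30% and 3.34%). A minimum above the 95th percentile of the receptor genes, added after seeing the data, left 11 carriers, with 2 higher (2.89% of all genes), 1 lower (6.10%) and 6 below 0 (60.6%). It left 25 companion genes, 3 of them past 2-fold in either direction, against the same 2.89% and 6.10% of all genes. The 5 carriers of highest mean FPKM held 71.4% of the summed FPKM, and the 5 with the most estimated reads, which are not per length (Slc25a5, Slc25a3, Slc25a4, Slc25a51 and Slc25a12), held 56.1% of the reads. Whether carriers past 2-fold keep their direction could not be checked this way. A pseudocount cannot change the sign of a log2 ratio, and the rescalings moved it by 0.13 and 0.05 only.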
